A study of Mus musculus with 6 samples.

Results

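Complex III of the respiratory chain, ubiquinol-cytochrome c reductase, and its mobile electron acceptor cytochrome c were described here at the mRNA level in mouse oocytes. The set comprised 10 nuclear genes out of the 60193 genes in the expression matrix, of which 53700 carried an Ensembl identifier. They were taken by symbol and Ensembl identifier: Cyc1, Uqcrfs1, Uqcrc1, Uqcrc2, Uqcrb, Uqcrq, Uqcrh, Uqcr10, Uqcr11 and Cycs. The mitochondrially encoded subunit, mt-Cytb, was measured beside them.

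The oocytes came from female ICR mice, an outbred stock, at 42 to 45 weeks of age, a natural model of advanced reproductive age, and all donors were primed with pregnant mare's serum gonadotropin. In the IVM group (3 samples), germinal vesicle oocytes were stripped of their cumulus cells and matured in M16 medium for 12 h. In the IVO group (3 samples), the mice also received human chorionic gonadotropin, and ovulated oocytes were taken from the oviduct 14 h later and freed of cumulus cells with hyaluronidase. Each sample was a pool of 20 metaphase II oocytes from 3 mice, so differences between single oocytes or single mice were averaged within a sample, and less RNA in every oocyte could not be told apart from fewer oocytes that held it. Gonadotropin, cumulus contact, medium and time differed together between the groups and cannot be told apart.

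In the inner mitochondrial membrane, complex III oxidizes ubiquinol, the reduced carrier filled by complexes I and II and by other dehydrogenases. In the Q cycle, electrons pass through cytochrome b, the Rieske iron-sulfur protein and cytochrome c1 to soluble cytochrome c, and protons are moved across the membrane. Cytochrome c then feeds complex IV, and when it leaks into the cytosol it binds Apaf1 and starts the caspase cascade. The complex is a main site of superoxide formation, and oocytes depend on oxidative phosphorylation in mitochondria that they pass on to the embryo. A fully grown oocyte makes almost no new RNA, so its transcripts are largely a maternal store.

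Cytochrome c is the member whose reads were hardest to place, because the mouse genome holds near-identical copies of it. The first 60 coding bases are shown (GENCODE vM39, build GRCm39), since they carry the heme-binding site and the differences between the copies. In Cycs the capitals mark the heme-binding codons, 2 cysteines and a histidine, within bases 43 to 57 counted from the A of the start codon. In the other sequences the capitals mark bases that differ from Cycs.
Cycs: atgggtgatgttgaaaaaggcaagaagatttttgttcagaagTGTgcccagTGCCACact
Gm10053: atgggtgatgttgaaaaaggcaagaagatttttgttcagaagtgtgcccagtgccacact
Gm10108: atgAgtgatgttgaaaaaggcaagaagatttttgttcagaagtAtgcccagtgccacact
Cyct: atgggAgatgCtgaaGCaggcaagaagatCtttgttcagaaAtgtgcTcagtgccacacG
The reading frame of Gm10053 was the same as that of Cycs over all 318 bases, and 945 of the 946 bases of its transcript were found in Cycs. Gm10108 differed at 2 of 318 bases (99.4% identity), G4A and G44A, the latter in a codon for a heme-binding cysteine. Cyct, the testis form of cytochrome c, differed at 76 bases (76.1% identity).

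Several accessory subunits are encoded by very short reading frames. Those of Uqcr11, Uqcr10 and Uqcrh, 171, 195 and 270 bases long, are shown. They were chosen for display because the study designed quantitative PCR primers in them, and capitals mark the primer sites. The amplicons span 65, 123 and 101 bases and so cover a large part of each frame. The study picked these genes from these samples, so the primers mark its choice and are not independent of the values below. Both Uqcr11 primers also matched Gm16418, a row listed at 0 FPKM in all 6 samples.
Uqcr11: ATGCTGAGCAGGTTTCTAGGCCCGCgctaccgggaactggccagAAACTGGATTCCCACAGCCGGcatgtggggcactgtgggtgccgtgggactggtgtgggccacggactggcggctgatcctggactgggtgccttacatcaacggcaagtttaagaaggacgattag
Uqcr10: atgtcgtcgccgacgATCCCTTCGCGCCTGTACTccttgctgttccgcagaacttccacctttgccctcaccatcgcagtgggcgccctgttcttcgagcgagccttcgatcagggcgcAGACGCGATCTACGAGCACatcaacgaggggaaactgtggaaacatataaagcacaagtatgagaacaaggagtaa
Uqcrh: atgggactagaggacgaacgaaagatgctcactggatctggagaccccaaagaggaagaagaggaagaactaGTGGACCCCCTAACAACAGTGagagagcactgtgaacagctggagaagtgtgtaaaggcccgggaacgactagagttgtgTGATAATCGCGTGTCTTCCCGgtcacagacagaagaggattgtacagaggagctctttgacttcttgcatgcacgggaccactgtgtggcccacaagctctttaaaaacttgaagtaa

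Levels are given in FPKM, fragments per kilobase of transcript scaled to the depth of the library. They are per listed length, so any comparison between genes rests on that length. The steps between low FPKM values gave an estimated depth of 16460000 to 19450000 fragments in the IVM samples and 17820000 to 18110000 in the IVO samples. The same steps gave estimated mean fragment lengths of 203 to 217 bases in IVM and 248 to 263 bases in IVO, so the libraries of the groups stood apart in fragment size, which weighs most on short transcripts. All 10 oocyte markers examined were at 1 FPKM or more in every sample, with summed levels, most of them from Oosp1 and Dppa3, of 21333 to 27825 FPKM in IVM and 21085 to 23299 in IVO. However, 4 of the 10 were themselves DEGs lower in IVO by the test described below, Zp2 (log2FC -3.69), Zp3 (-3.13), Zp1 (-2.43) and Nlrp5 (-1.99), with a median log2FC of -0.92 over the list, so changes of this size were also present among oocyte genes outside the respiratory chain. Over all genes tested, 17.9% were DEGs lower in IVO. Of 15 cumulus or granulosa cell markers, Amh was listed at 0 in every sample, and Has2, Ptx3, Tnfaip6 and Ptgs2 did not exceed 0.5 FPKM. Their summed level was 62.4 to 64.8 FPKM in IVM and 44.7 to 53.7 in IVO, nearly all of it from Fshr, Cyp19a1 and Nr5a2. The lower sum in IVO came from Nr5a2 (log2FC -1.04), whereas the groups overlapped for Fshr and Cyp19a1. Nr5a2 was a DEG but lost the call in 9 of 20 alternatives described below. Has2, Ptx3 and Tnfaip6, at means of 0.0933, 0.02 and 0.0567 FPKM in IVM and 0.3, 0.113 and 0.427 FPKM in IVO, were higher in every IVO sample than in every IVM sample. That order was shown by 9.62% of all genes tested, and these genes were too low to be tested. Ptgs2 and Hsd3b1 had higher means in IVO, with overlap (Hsd3b1 at 0.263 FPKM in IVM and 0.363 in IVO). Inha (means 0.57 FPKM in IVM and 0.213 in IVO), Inhba, Foxl2, Star, Cyp11a1 and Lhcgr had lower means in IVO, with overlap. The part of these differences in the results below was not tested.

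Genes with a mean of at least 1 FPKM, 18818 in all, were compared between IVO and IVM with limma on log2(FPKM + 1), two-sided, and log2FC is the IVO mean minus the IVM mean on that scale, which understates the change of low genes. A gene was called differentially expressed (DEG) at an absolute log2FC of at least 1 and a Benjamini-Hochberg adjusted p under 0.05 over all genes tested. With 3 samples against 3, an exact permutation test cannot go below 0.1, so single genes were tested in the fit across all genes. Of the 10 members, 9 passed the filter and 4 were DEGs, all lower in IVO, beside 17.9% of all genes tested that were DEGs lower in IVO. No member was a DEG higher in IVO (0.606% of all genes tested), and 5 of the 9 had an unadjusted p under 0.05, as had 36.9% of all genes tested. Every IVO sample lay under every IVM sample in 4 of the 9, an order shown by 32.6% of all genes tested. The opposite order was shown by 2 of the 9 and by 9.62% of all genes tested. The plot of levels by sample shows that the 4 DEGs were all small accessory subunits, whereas the proteins that carry electrons were either low in both groups or not lower in IVO.

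**Figure D1:**
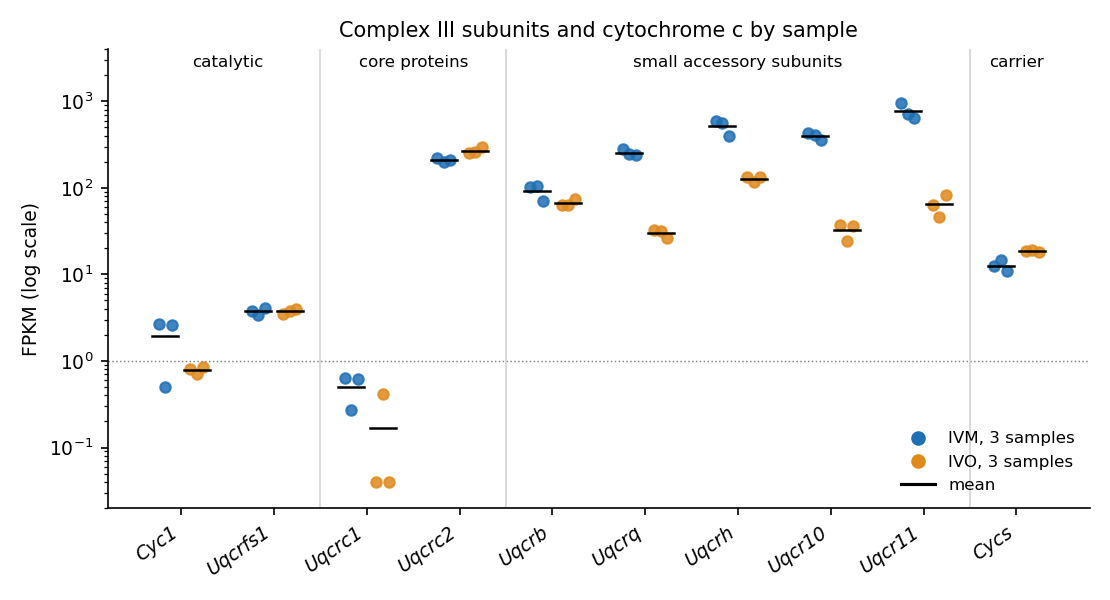
Level of each member in each sample (FPKM, log scale), with 3 IVM samples in blue, 3 IVO samples in orange and the group mean as a bar; the dotted line marks 1 FPKM, the mean level a gene needed to be tested. Uqcrq, Uqcrh, Uqcr10 and Uqcr11 sit lower in every IVO sample, Uqcrc2 and Cycs sit slightly higher, and Uqcrc1 lies under the line in all 6 samples.

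Uqcr11 (ENSMUSG00000020163, chr10:80236542-80242676, minus strand, GRCm39) encodes the smallest of these subunits, which sits close to the Rieske protein at the edge of the complex. It was the most abundant member in every IVM sample, at 961, 716 and 634 FPKM, against 63.6, 46.4 and 83.2 FPKM in the IVO samples. The groups were far apart, with the highest IVO sample well under the lowest IVM sample, an order that 32.6% of all genes tested showed. The mean fell from 771 ± 170 FPKM (SD, n = 3) in IVM to 64.4 ± 18.4 (SD, n = 3) in IVO, a 12.0-fold difference. The log2FC was -3.58 with a standard error (SE) of 0.26 and a limma adjusted p of 7.69e-04.

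Uqcr10 (ENSMUSG00000059534, chr11:4651968-4654653, minus strand) encodes a single-span subunit that lies beside cytochrome c1. Its levels were 431, 405 and 354 FPKM in IVM against 37.6, 24.3 and 36.7 FPKM in IVO. The means were 397 ± 39.2 and 32.8 ± 7.43 FPKM (SD, n = 3 each), and the spread within each group was small beside the gap. This 12.1-fold difference gave a log2FC of -3.58 (SE 0.22, limma adjusted p = 6.23e-04), close to that of Uqcr11.

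Uqcrq (ENSMUSG00000044894, chr11:53318749-53322047, minus strand) encodes a subunit that joins cytochrome b early in assembly. It stood at 280, 247 and 242 FPKM in IVM and at 32.6, 31.6 and 26.0 FPKM in IVO. No IVO sample came near the IVM range (in 32.6% of all genes tested every IVO sample lay under every IVM sample). The means, 256 ± 21.1 and 30.1 ± 3.53 FPKM (SD, n = 3 each), differed 8.52-fold. The log2FC was -3.05 (SE 0.18, limma adjusted p = 5.60e-04).

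Uqcrh (ENSMUSG00000063882, chr4:115923314-115932296, minus strand) encodes the acidic hinge protein, which lies at cytochrome c1 where cytochrome c docks. Its levels were 593, 556 and 400 FPKM in IVM and 135, 116 and 133 FPKM in IVO. The means were 517 ± 102 and 128 ± 10.8 FPKM (SD, n = 3 each), 4.04-fold apart. The log2FC of -1.99 (SE 0.20, limma adjusted p = 0.00159) was smaller than that of the preceding subunits, and in the IVO samples Uqcrh was the most abundant of the small subunits.

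Uqcrb (ENSMUSG00000021520, chr13:67048655-67053443) encodes the remaining small subunit, which also joins cytochrome b early. It was at 101, 106 and 70.3 FPKM in IVM and at 63.3, 62.6 and 75.2 FPKM in IVO, and the groups overlapped. Its log2FC was -0.44 (SE 0.22, limma adjusted p = 0.188), and it was not a DEG. The ratio of Uqcrb to Uqcrq FPKM was 0.291 to 0.431 in the IVM samples and 1.94 to 2.89 in the IVO samples, so Uqcrq was the more abundant of these partners of cytochrome b in IVM and Uqcrb in IVO.

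Among the core proteins, which face the matrix and are related to mitochondrial processing peptidases, Uqcrc2 was the abundant one. Uqcrc2 (ENSMUSG00000030884, chr7:120233976-120260035, plus strand) was at 220, 199 and 213 FPKM in IVM and at 250, 258 and 295 FPKM in IVO. Every IVO sample was above every IVM sample, an order that 9.62% of all genes tested showed. The difference in means, 211 ± 10.3 against 268 ± 24.0 FPKM (SD, n = 3 each), gave a log2FC of 0.34 (SE 0.15, limma adjusted p = 0.154), which did not pass the test. In alternatives described below, its adjusted p was 0.0344 with median-ratio scaling, 0.0133 with quantile normalization, 0.0286 with equal sums and 0.0347 with the length trend removed. The log2FC was at most 0.84 in any setting, so Uqcrc2 was never a DEG. Over all alternatives its adjusted p ran up to 0.357.

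Uqcrc1 (ENSMUSG00000025651, chr9:108765701-108778710, plus strand), the partner of Uqcrc2 in the assembled complex, was the lowest member in every sample. It was listed at 0.63, 0.27 and 0.62 FPKM in IVM and at 0.04, 0.42 and 0.04 FPKM in IVO, about 8 to 17 fragments per IVM sample and 1, 11 and 1 in the IVO samples. It did not reach the mean of 1 FPKM, and the 2 lowest IVO values lie under 3 fragments (0.119 FPKM), so no fold change can be read at this depth. Fitted with no filter on low values, over 32852 genes, its log2FC was -0.38 (SE 0.17, limma adjusted p = 0.232). The core proteins pair in the complex, but the ratio of Uqcrc2 to Uqcrc1 FPKM was 343 to 738 in the IVM samples.

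The nuclear catalytic subunits were sparse too. Uqcrfs1 (ENSMUSG00000038462, chr13:30723448-30729345), the Rieske iron-sulfur protein, was at 3.79, 3.43 and 4.12 FPKM in IVM and at 3.53, 3.75 and 3.95 FPKM in IVO. The groups overlapped entirely, and the log2FC was -0.0095 (SE 0.20, limma adjusted p = 0.980), from about 70 to 91 fragments per sample. Cyc1 (ENSMUSG00000022551, chr15:76227204-76230462, plus strand), cytochrome c1, was at 2.69, 0.50 and 2.63 FPKM in IVM and at 0.80, 0.70 and 0.86 FPKM in IVO. The IVM samples were spread widely, since IVM replicate 2 lay under all IVO samples, at about 13 fragments against 58 and 66 in the other IVM samples. The log2FC was -0.61 (SE 0.39, limma adjusted p = 0.313), and without IVM replicate 2 it was -1.04 (adjusted p = 0.0339), which would make Cyc1 a DEG.

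**Figure D2:**
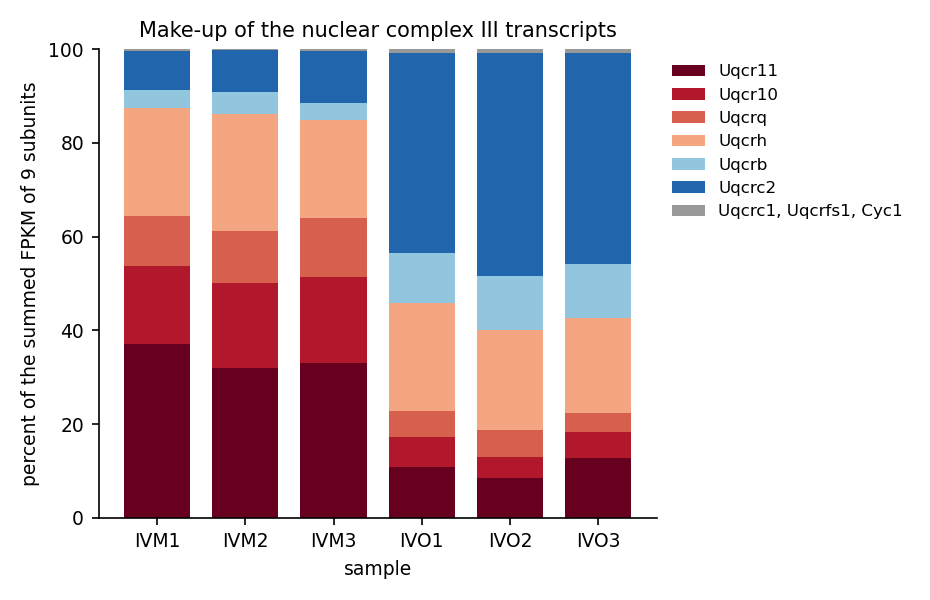
Share of each subunit in the summed FPKM of the 9 nuclear complex III subunits, in percent, for each of the 6 samples. Uqcrq, Uqcrh, Uqcr10 and Uqcr11, in reds, make up most of each IVM column and at most 45.8% of each IVO column, where Uqcrc2, in dark blue, takes the largest share.

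Set together, the 9 nuclear subunits summed to 2594, 2235 and 1921 FPKM in IVM and to 587, 543 and 654 FPKM in IVO. Uqcrq, Uqcrh, Uqcr10 and Uqcr11 made up 84.9 to 87.4% of that sum in IVM and 40.1 to 45.8% in IVO. The share of Uqcrc2 was 8.46 to 11.1% in IVM and 42.6 to 47.5% in IVO. The order of the levels therefore differed: Uqcr11 led in every IVM sample and Uqcrc2 in every IVO sample, and the ratio of Uqcr11 to Uqcrc2 was 2.98 to 4.38 in IVM and 0.180 to 0.282 in IVO. In IVM the means ran from Uqcr11 through Uqcrh, Uqcr10, Uqcrq, Uqcrc2, Uqcrb, Cycs, Uqcrfs1 and Cyc1 down to Uqcrc1, and the neighbours whose samples overlapped were Uqcrh with Uqcr10 and Cyc1 with Uqcrc1. In IVO they ran from Uqcrc2 through Uqcrh, Uqcrb, Uqcr11, Uqcr10, Uqcrq, Cycs, Uqcrfs1 and Cyc1 to Uqcrc1. The neighbours whose samples overlapped there were Uqcrb with Uqcr11 and Uqcr10 with Uqcrq. These orders, shares and ratios rest on the listed lengths. In approximate fragments, not divided by length, Uqcrc2 stood above Uqcr11 in the IVM samples too (6070, 6533 and 6890 against 3623, 3274 and 2946).

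mt-Cytb, cytochrome b, is the mitochondrially encoded subunit that holds both ubiquinone-binding sites (chrM:14145-15288). It was at 3052, 4496 and 3746 FPKM in IVM and at 7135, 7692 and 6163 FPKM in IVO. Every IVO sample was thus above every IVM sample, as for 9.62% of all genes tested. The mean was 1.86-fold higher in IVO, with a log2FC of 0.91 (SE 0.17, limma adjusted p = 0.0117). The p passed its threshold in this direction, as it did for 1.87% of all genes tested, but the fold did not, and mt-Cytb was not a DEG. It passed both thresholds in 7 of 20 alternative settings, so its side of the fold threshold was not settled.

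Cycs (ENSMUSG00000063694, chr6:50539541-50543557, minus strand), somatic cytochrome c, was at 12.4, 14.6 and 10.9 FPKM in IVM and at 18.6, 19.0 and 18.3 FPKM in IVO. All IVO samples were higher than all IVM samples, an order that 9.62% of all genes tested showed, and lay close together. The means were 12.7 ± 1.86 and 18.6 ± 0.345 FPKM (SD, n = 3 each), and the log2FC of 0.53 (SE 0.19, limma adjusted p = 0.0871) did not pass the test. Under quantile normalization Cycs was a DEG, with a log2FC of 1.03 (adjusted p = 0.0155). Its adjusted p was also under 0.05 with median-ratio scaling (0.0304), equal sums (0.0265) and the length trend removed (0.0374), all described below. The fold stayed under its threshold there (log2FC 0.83, 0.85 and 0.81 in turn). Over all alternatives the adjusted p of Cycs ran from 0.0155 to 0.310.

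The near-identical copies shown above were listed at higher FPKM than Cycs itself. Gm10053 (chr19:24853050-24853995), annotated as protein-coding, was at 48.4, 47.2 and 48.7 FPKM in IVM and at 49.2, 43.4 and 52.1 FPKM in IVO. Its groups overlapped (log2FC 0.0003, SE 0.17, limma adjusted p = 0.999). Gm10108 (chr5:13171415-13171733), annotated as a transcribed processed pseudogene, was at 221, 248 and 195 FPKM in IVM and at 249, 289 and 240 FPKM in IVO (log2FC 0.23, SE 0.17, limma adjusted p = 0.382). With the length trend removed (described below), Gm10108 became a DEG higher in IVO, at a log2FC of 1.28. Since the copies differ from Cycs at 2 bases or fewer in the frame, how the reads were divided among them is uncertain, and their levels cannot be taken as separate transcripts.

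**Figure D3:**
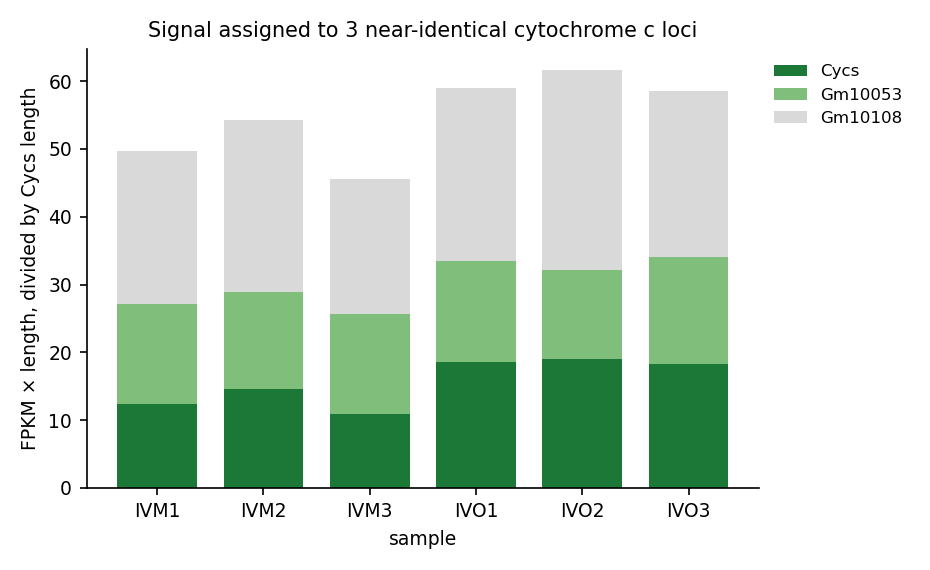
Signal assigned to Cycs, Gm10053 and Gm10108 in each sample, as FPKM multiplied by listed length and divided by the listed length of Cycs, stacked. The 3 IVO columns (58.6 to 61.6) are higher than the 3 IVM columns (45.6 to 54.2), and the part assigned to Cycs is the dark band at the base. The groups overlap when the lengths are reduced by the mean fragment length.

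Summed over the 3 loci and expressed per length of Cycs, the level was 49.7, 54.2 and 45.6 FPKM in IVM and 58.9, 61.6 and 58.6 FPKM in IVO. The log2FC of the merged row was 0.26, smaller than the 0.53 of Cycs alone. The share of the merged signal assigned to Cycs was 24.0 to 27.0% in IVM and 30.8 to 31.6% in IVO. Listed length overstates the fragments of so short a row as Gm10108, whose length is close to that of the sequenced fragments. In fragments estimated from listed length less mean fragment length, Cycs held 594, 828 and 610 in IVM and 965, 973 and 946 in IVO, and both copies together held 957 to 1200 in IVM and 867 to 965 in IVO. The share of Cycs was then 35.1 to 40.8% in IVM and 49.5 to 52.7% in IVO, so on either scale the division among the loci differed between the groups. On that second scale the merged level overlapped between the groups, at 31.1 to 35.8 FPKM in IVM and 35.4 to 37.0 FPKM in IVO, so a higher total of cytochrome c in IVO was not separated from the length correction. The merging and both scales were chosen after the values were seen. Cyct, which differs enough to be told apart, was low and overlapped between the groups, at 7.03, 7.11 and 5.90 FPKM in IVM and 7.10, 4.52 and 5.10 FPKM in IVO (log2FC -0.24, limma adjusted p = 0.495).

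Further related rows were mostly silent. Beside the members and mt-Cytb, 54 rows shared a KEGG ortholog with them; 42 were listed at 0 in all 6 samples and 6 reached the level for testing, 4 of them with Cycs. Cycs-ps3, a processed pseudogene of cytochrome c, was at 3.60, 2.42 and 2.09 FPKM in IVM and listed at 0 in all IVO samples, and it was a DEG (limma adjusted p = 0.00457). Its call was lost with the length trend removed (adjusted p = 0.0592). Gm11474, a copy of Uqcrh, was at 2.17 to 3.28 FPKM in IVM and 0.72 to 1.37 in IVO and was not a DEG (log2FC -0.87). Cycs-ps3 and Gm11474 have listed lengths of 321 and 277 bases, so their levels rest on few fragments. For Gm10108, of 319 bases, 3 fragments correspond to 1.34 to 1.77 FPKM in IVM and 2.32 to 2.91 FPKM in IVO. The IVO values of Cycs-ps3 and Gm11474 lie under that, so their fold changes cannot be read at this depth. Gm43841, a copy of mt-Cytb, was a DEG with a log2FC of -1.08 (limma adjusted p = 0.0459), opposite in sign to mt-Cytb itself, and kept the call in 4 of 20 alternatives. The rows sharing the ortholog of Uqcr10 that were above 0 stayed below the level for testing, at most 3.03 FPKM in any sample. They were 4930481A15Rik, annotated as a long noncoding RNA, and Gm6293, a processed pseudogene.

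The members split by the length listed for them in the expression matrix. The split holds for this listed length only. In GENCODE vM39 the canonical transcripts of Uqcrq, Uqcrh and Uqcr11 are 1537, 1423 and 2746 bases long. All 5 small subunits had a listed length of at most 600 bases (405 to 547), and 4 of them were DEGs. The other 5 members were longer than 1300 bases, and none of the 4 that were tested was a DEG. Over all protein-coding genes tested, 40.6% of those of at most 600 bases were DEGs lower in IVO, against 24% of those of over 600 and at most 1300 bases and 12% of the longer ones. The quartiles of the log2FC were -1.77 and -0.12 in the shortest class, and the median was -0.35 in the middle class and -0.13 in the longest, so genes of short listed length as a class were lower in IVO, and the groups of libraries also differed in fragment length, as given above. Uqcrb lay between the quartiles of the shortest class, whereas the 4 DEGs lay beneath its lower quartile. The plot sets the change of each member against its listed length.

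**Figure D4:**
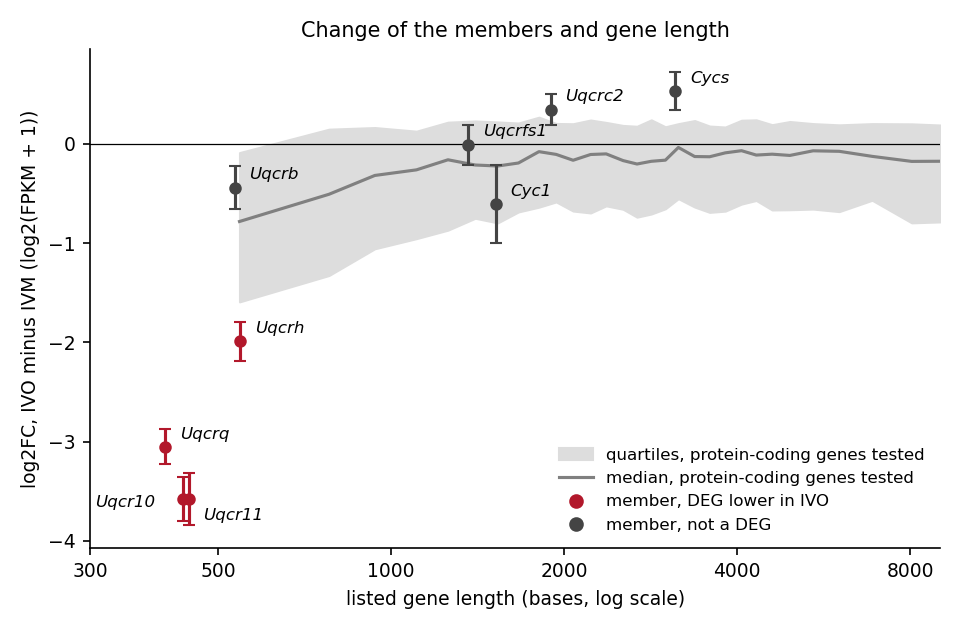
Log2FC (IVO minus IVM, on log2(FPKM + 1)) with its SE for the 9 tested members against listed gene length (log scale), over the median (line) and quartiles (band) of protein-coding genes tested, in bins of length. The band begins at 545 bases, the median length of its shortest bin. Uqcrh lies beneath it, and Uqcrq, Uqcr10 and Uqcr11 lie to its left, lower than the lower quartile of that bin (-1.59). The members longer than 1300 bases lie within the band or above it.

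When the trend of each library with listed gene length was removed, 6.98% of all genes tested were DEGs lower in IVO, and the same 4 members were among them. The log2FC then was -2.73 for Uqcr11, -2.71 for Uqcr10, -2.14 for Uqcrq and -1.27 for Uqcrh. The part of fragment size beyond this trend was not tested. These 4 subunits stayed DEGs under all 20 alternative settings, with log2FC ranges of -3.78 to -2.73 for Uqcr11, -3.68 to -2.71 for Uqcr10, -3.11 to -2.14 for Uqcrq and -2.16 to -1.27 for Uqcrh.

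**Figure D5:**
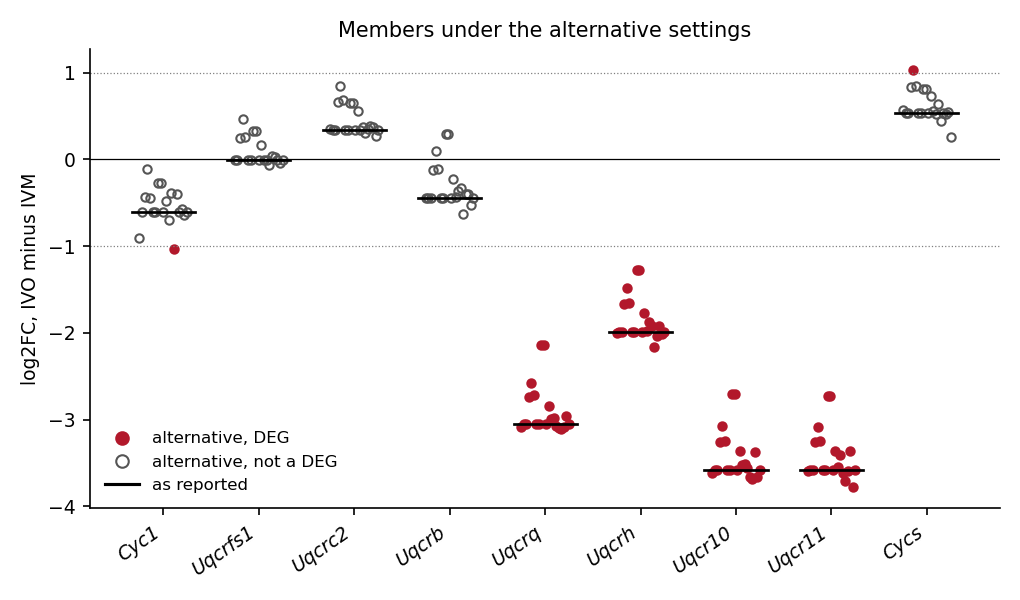
Log2FC (IVO minus IVM) of each tested member under each alternative setting, filled where the member was a DEG, with the reported value as a black line and dotted lines at the fold threshold. The 4 small subunits are filled throughout, and Cyc1 and Cycs are filled under 1 setting each.

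The median log2FC of the 9 tested members was -0.61, and that of the 5 small subunits was -3.05, against -0.30 over all genes tested. The summed FPKM of the libraries was 1826738 to 2111776 in IVM and 1560813 to 1643682 in IVO. With median-ratio scaling of the libraries, the median over all genes moved to -0.04 and that of the members to -0.43. The log2FC of each of the 4 subunits lay far beneath either median.

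Complex III needs dedicated assembly factors, and 9 genes for them were found, of which 6 were tested and 2 were DEGs, both lower in IVO. That was 33.3% of those tested, beside 17.9% of all genes tested. Uqcc2, which stabilizes newly made cytochrome b, was at 86.6, 79.3 and 67.2 FPKM in IVM and 19.2, 17.7 and 22.0 FPKM in IVO. The groups did not overlap, with IVO lower as in 32.6% of all genes tested, and the log2FC was -1.93 (SE 0.19, limma adjusted p = 0.00153). Smim4, the factor now named Uqcc5, was at 20.8, 23.1 and 20.5 FPKM in IVM and 14.4, 7.83 and 8.73 in IVO (log2FC -1.03, limma adjusted p = 0.0267). Its value sat at the fold threshold, and it kept the call in 7 of 20 alternatives. Uqcc1, Lyrm7, Ttc19 and 1190007I07Rik (now Uqcc6) had log2FC values of -0.48 to 0.30 and did not pass the test. Bcs1l, the translocase that inserts the Rieske protein, was at 0.40 FPKM or less in every sample and was not tested.

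Of the genes that make ubiquinone, 13 were found, 8 were tested and 1 was a DEG, lower in IVO. That was 12.5% of those tested, under the 17.9% of all genes tested. Coq7, a hydroxylase late in the pathway, had a log2FC of -1.23 (SE 0.20, limma adjusted p = 0.00620), from 65.4 ± 9.23 to 27.2 ± 3.37 FPKM (SD, n = 3 each). It lost the call under 5 of 20 alternatives, among them median-ratio scaling (-0.92). The enzymes that hand electrons to ubiquinone, beside complex I, numbered 12, of which 9 were tested and 3 (33.3%) were DEGs, all lower in IVO. Etfdh, which passes electrons from fatty acid and amino acid oxidation to ubiquinone, had a log2FC of -1.68 (SE 0.30, limma adjusted p = 0.00896). Sdhd, a membrane anchor of complex II, stood at -1.34 (SE 0.30, limma adjusted p = 0.0204). Etfb, a subunit of the flavoprotein that feeds Etfdh, stood at -1.15 (SE 0.34, limma adjusted p = 0.0492). The medians of both lists, -0.23 and -0.12, lay above the -0.30 of all genes tested, and the calls of Etfb and Sdhd were lost in 15 and 8 alternatives.

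On the apoptotic side of cytochrome c, 7 of 12 genes were tested, with a median log2FC near 0 (-0.0039). Bax, which opens the outer membrane through which cytochrome c leaves, was at 1.5, 1.26 and 2.30 FPKM in IVM and 4.28, 5.28 and 5.43 FPKM in IVO. Every IVO sample was higher than every IVM sample, as for 9.62% of all genes tested. The log2FC was 1.17 (SE 0.24, limma adjusted p = 0.0151), though at low levels. The call was lost without IVM replicate 1 (adjusted p = 0.0533) and without IVO replicate 2 (adjusted p = 0.0557). Apaf1, the cytosolic partner of cytochrome c, had a log2FC of 0.63 (limma adjusted p = 0.109) and was not a DEG. Hccs, which attaches heme to cytochrome c and cytochrome c1, did not differ beyond its spread (log2FC 0.07, limma adjusted p = 0.855).

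The other proton-pumping complexes and the ATP synthase held DEGs in the same direction only. Of the nuclear genes, 22 of 37 tested in complex I, 9 of 15 in complex IV and 9 of 18 in complex V were DEGs lower in IVO, and none was a DEG higher. Over all genes tested, 17.9% were DEGs lower and 0.606% DEGs higher. The median listed lengths of these lists were 763, 618 and 732.5 bases in turn. Of protein-coding genes over 600 and at most 1300 bases, 24% were DEGs lower, and of those of at most 600 bases 40.6%. The median log2FC was -1.32, -1.58 and -1.08 in turn. The most negative values were those of Ndufa7 (-4.43) and Ndufa5 (-4.26) in complex I, Cox7c (-4.12) and Cox7b (-2.59) in complex IV, and Atp5md (-3.01) and Atp5mpl (-2.64) in complex V. All of these passed in every alternative, as did the 4 complex III subunits. Among the DEGs nearest to 0 were Ndufs7 (-1.12), Cox4i1 (-1.17) and Cox6a1 (-1.58), and Atp5k (-1.09) and Atpif1 (-1.26), each of which lost the call in at least 2 alternatives. With the length trend removed, the counts were 13 of 37, 7 of 15 and 7 of 18, against the same 4 of the 9 tested members. Over all genes tested, the share was then 6.98%.

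Among 79 tested genes of complexes I, IV and V and of the ubiquinone-reducing enzymes, the pattern over the 6 samples most like the mean of the tested members was that of Ndufa6 (Pearson r = 0.999), followed by Ndufa7 and Ndufb11 (r = 0.998 each). The pattern most like that of Cycs was that of Cox5a (r = 0.904), followed by Cox5b (r = 0.778) and Atp5a1 (r = 0.640). These correlations are descriptions over 6 samples that share the split into groups and the library differences given above. Cox5a, the complex IV subunit most like Cycs, was at 186, 195 and 197 FPKM in IVM and at 372, 410 and 316 FPKM in IVO (log2FC 0.92, limma adjusted p = 0.00898), under the fold threshold in the reported fit and past it in 7 of 20 alternatives.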

How the data were processed

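RNA from pools of metaphase II oocytes was made into cDNA with the SMART-Seq v4 kit, which primes on the poly(A) tail, so that a change in the amount of an mRNA and a change in its tail cannot be told apart. Nextera XT libraries were sequenced in paired ends on an Illumina NovaSeq. Per the labels and methods, the authors used SeqPrep and Sickle for read filtering, HISAT2 2.1.0 for alignment (build GRCm39) and RSEM 1.3.3 for quantification; the annotation release is not given in the sources used here. The deposited unit is FPKM, as the authors computed it. Counts were not among the files used here, so the count test of the study was replaced by limma (3.58.1, R 4.3.3; lmFit and eBayes with a trend) on log2(FPKM + 1), over genes whose mean FPKM reached 1, with the study's thresholds. The fit was tested on simulated data.

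Values were compared over 6 samples, 3 per group, and p-values measure the spread between pools. Depth and fragment length were estimated from FPKM steps of 10184 genes of 500 to 1500 bases. Of the low values, 73.0 to 75.7% came out whole within 0.1 fragments. That was too few to rebuild counts, so fragments are approximate and given for some genes only. GENCODE vM39 gave locations, reading frames and biotypes. The length alternative removed a lowess trend (span 0.3) of each library. Ortholog groups are those of the annotation columns in the matrix.

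The members and gene lists were chosen with earlier results of these data known. Named genes were the 10 members, mt-Cytb and the DEGs of each other list (above 5, the 2 most negative and 2 least negative). Rows that share a KEGG ortholog (where 5 or fewer) and the 3 genes most like the members' mean and most like Cycs were also named. Some genes that this rule names are not reported here. Alternatives changed the pseudocount (0.1), the filter (none, or a mean of at least 5 FPKM), the library scaling, the variance trend, the gene length correction, the genes entered and the samples, each in turn. A block for replicate number was entered alone and with the length trend removed. Median-ratio scaling was also run on Ensembl genes only. The merging of the 3 cytochrome c loci was added after the values were seen.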

Additional observations from a re-analysis of the deposited data

How the results depend on the processing

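The count of members that were DEGs was 4 in the alternatives, also with no fold threshold in the reported fit, except for 5 under quantile normalization (Cycs added, higher in IVO) and 5 without IVM replicate 2 (Cyc1 added), so leaving out samples gave 4 to 5. The median log2FC of the tested members, -0.61 as reported, was -0.91 with a pseudocount of 0.1, -1.99 with a mean of at least 5 FPKM (which drops low members), -0.43 with median-ratio scaling, -0.44 with equal sums, -0.48 with Ensembl genes and median-ratio scaling, -0.11 with quantile normalization and -0.28 with the length trend removed, and -1.04 to -0.39 with 1 sample left out. Genes that were not called changed sign. Uqcrfs1 went to 0.24 (median-ratio), 0.26 (equal sums), 0.46 (quantile), 0.16 (Ensembl genes, median-ratio), 0.33 (length trend removed) and -0.063 to 0.041 (1 sample left out). Uqcrb went to 0.10 (quantile) and 0.29 (length trend removed). Cyct went to 0.034 (median-ratio), 0.050 (equal sums), 0.25 (quantile) and 0.36 (length trend removed), Gm11474 to 0.26 (length trend removed), and Gm10053 spanned -0.057 to 0.073 with 1 sample left out. Causes were not tested.

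Samples with the same replicate number did not deviate together (correlations of -0.107 to -0.0176, against -0.0227 to 0.0809 for other pairs). With 3 samples per group, these values cannot exclude a pairing by number or a shared batch. With the replicate block the members' count was 4 and the median -0.61, and with the length trend removed as well 4 and -0.28. Over all genes, 3480 DEGs became 2991 with the block, 2223 with the length trend removed, 977 with both and 2363 to 3304 with 1 sample left out. DEGs lower and higher in IVO numbered 3366 and 114 as reported, 2130 and 385 with median-ratio scaling, 2131 and 397 with equal sums, 1580 and 1097 with quantile normalization, and 1314 and 909 with the length trend removed. Uqcrc1, Cyc1, Cycs-ps3 and Gm11474 rest on few fragments, and the result for Cyc1 turns on IVM replicate 2.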
